A study of Mus musculus with 16 samples.

Results

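In a macrophage experiment, 3 gene pairs were followed across the conditions, each with a gene that the cells transcribe and the next gene downstream of it on the same strand. The pairs were Aoc2 with Aoc3 on chromosome 11, Plcl2 with a probe named Btg3 on chromosome 17, and Cactin with Tbxa2r on chromosome 10. All array probes carrying a member's gene name were taken, which gave 8 probes of 6 gene names out of 34836 names and 55681 non-control probes, and all 8 passed the filter on dim probes that left 21597. The downstream genes had been selected on their rise with cordycepin in LPS-treated cells, and the upstream genes on their signal and on a small response to LPS, so those values are given below as a description. The cordycepin arrays without LPS were not used in that choice, and cordycepin against DMSO is the comparison that was tested. Its DMSO arrays are also the control of the response to LPS.

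The cells were RAW264.7, a macrophage-like line grown from a mouse tumour, in low serum. They received either the vehicle DMSO or cordycepin at 20 µM for 120 min, and LPS, a bacterial cell wall component that activates macrophages, was present at 1 µg/ml for the last 60 min in the conditions that had it. The 4 conditions are named DMSO, cordycepin, LPS+DMSO and LPS+cordycepin, with 4 cultures and 4 arrays each, and the replicates were taken on separate days. Replicates 1 and 2 of all conditions shared a slide, as did replicates 3 and 4. The line is a single established one, so the replicates are cultures and not animals.

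Cordycepin is an adenosine analogue without the 3′ hydroxyl group, and it stops the growth of a poly(A) tail once it is built in. The 3′ end of an mRNA is normally made by cleavage some bases after a polyadenylation signal, most often the hexamer AATAAA, followed by the addition of the tail. Cleavage also helps RNA polymerase to leave the gene, and a polymerase that fails to leave can run on into the gene that follows on the same strand. The labelling kit primes from poly(A) tails, and a probe reports only on its own 60 bases, so the arrays do not show where a transcript began.

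The upstream members differ in function. Aoc2 is a copper-containing amine oxidase known from the retina. Plcl2 resembles a phospholipase C but lacks its catalytic activity, and Cactin is a conserved nuclear protein linked to splicing. Among the downstream members, Aoc3 is vascular adhesion protein 1, an amine oxidase of endothelial, smooth muscle and fat cells, and Tbxa2r is the receptor for thromboxane A2, best known from platelets and smooth muscle.

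The probe named Btg3 needs a comment, because its name and its place differ. Btg3 is an antiproliferative protein of the BTG/TOB family, and RefSeq places its gene on chromosome 16. The probe lies on chromosome 17, and its accession list holds both the Btg3 mRNA and a second RefSeq transcript that belongs to Gm7334, a transcribed pseudogene on chromosome 17. RefSeq lists 0 genes between Plcl2 and Gm7334, 0 between Aoc2 and Aoc3, and 0 between Cactin and Tbxa2r. Signal from the Btg3 mRNA and from the pseudogene cannot be told apart on this probe, and it is called the chr17 Btg3 probe here.

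The positions are those of the array files, on the mouse build mm9, and all 8 probes lie on the plus strand. The 5′ Aoc2 probe covers chr11:101190749-101190808 and the 3′ Aoc2 probe chr11:101190937-101190996, with 188 bases between their starts. Aoc3 also has a 5′ probe, at chr11:101200545-101200604, and a 3′ probe, at chr11:101203172-101203231, with starts 2627 bases apart. The Plcl2 probe is at chr17:50827332-50827391 and the chr17 Btg3 probe at chr17:50839065-50839124. Cactin is read at chr10:80788877-80788936 and Tbxa2r at chr10:80797520-80797579. From the end of the upstream gene's last probe to the start of the first downstream probe, the gap was 9549 bases for Aoc2 and Aoc3, 11674 for Plcl2 and the chr17 Btg3 probe, and 8584 for Cactin and Tbxa2r. No other probe lay in these gaps, so the stretch between the genes was not measured.

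The last 30 bases of 6 probes are shown because they carry the differences described below, with AATAAA in capitals where it occurs.
5′ Aoc2 probe: cctgaggctatggtgaggccccagggtagg
3′ Aoc2 probe: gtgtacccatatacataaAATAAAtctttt
Plcl2 probe: aacccacgtgtgaaggcaAATAAActcttt
5′ Aoc3 probe: tacatttgtttatttctgctgcattccttg
chr17 Btg3 probe: tactttatggagagtatataagttatttat
Tbxa2r probe: cgacatggggctgactcctgtgaactgcaa

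Both the 3′ Aoc2 probe and the Plcl2 probe held AATAAA, followed by 6 further bases at the end of the probe, and the 5′ Aoc2 probe, which starts 188 bases earlier, held none. Of all 55681 probes, 10.1% held AATAAA as written and 3.74% held it on the other strand, and among the 8 probes the counts were 2 and 1, the latter on the 5′ Aoc3 probe. The longest run of letters shared by an upstream and a downstream probe of the same pair was 7 bases. A match to these letters is a description of the probe and not of a processing site in use.

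On each array, 21999 to 30362 of 59305 spots exceeded background clearly (37.1 to 51.2%), with fewer on the slide of replicates 1 and 2 (21999 to 26055) than on the other (27151 to 30362). All 8 macrophage markers looked for, among them Cd68, Csf1r and Adgre1, were well above background on all 16 arrays. Of 12 markers of other cell types, 8 were well above background on at least 1 array. Among these 8, the T cell marker Cd3e was so on all 16 arrays, the B cell marker Cd79a on 12 and the endothelial marker Pecam1 on 10. Cdh1, Krt18, Pdgfra and Alb were well above background on none. The signals of the 12 markers were summed and the sum taken to log2. It was 9.18 to 9.50 in DMSO, 9.26 to 9.69 in cordycepin, 9.30 to 9.56 in LPS+DMSO and 9.60 to 11.21 in LPS+cordycepin. There Cd79a was higher by 2.63 ± 0.31 (SE) than in LPS+DMSO. The source of these marker signals in a single macrophage line, and their part in the results below, was not tested. As the RNA came from whole cultures, fewer responding cells and less RNA per cell cannot be told apart.

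In cordycepin against DMSO, the 5′ Aoc3 probe, the chr17 Btg3 probe and Tbxa2r rose from a level not well above background to a clear signal on all 4 arrays, while Cactin (-0.13 on the log2 scale) and the 3′ Aoc2 probe (-0.01) did not pass the test. Plcl2 was lower by less than 2-fold. The 5′ Aoc2 probe rose as well, and the 3′ Aoc3 probe differed by 0.00. A call required a 2-fold change together with an adjusted p below 0.05, and on that basis 3 of 4 downstream probes and 1 of 4 upstream probes were called higher, against 5.55% of all probes tested (1199 of 21597). None of the 8 probes was called lower, against 1.08% of all probes (234). With scaling to the median of all probes the split over all probes was 927 higher and 623 lower. The 3 downstream probes passed the filter on dim probes only through the cordycepin conditions, in which they are high, so the count by itself is no support. Among probes that were kept in this way and read on no DMSO array, 75.6 to 87.5% were called higher, and this is the share for probes of their kind. Each of the 3 was called also with no such filter, which does not undo their selection on a rise with cordycepin under LPS. The 3′ Aoc3 probe, which did not rise, was likewise kept only through the cordycepin condition, where 4 of 4 arrays read it.

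**Figure D1:**
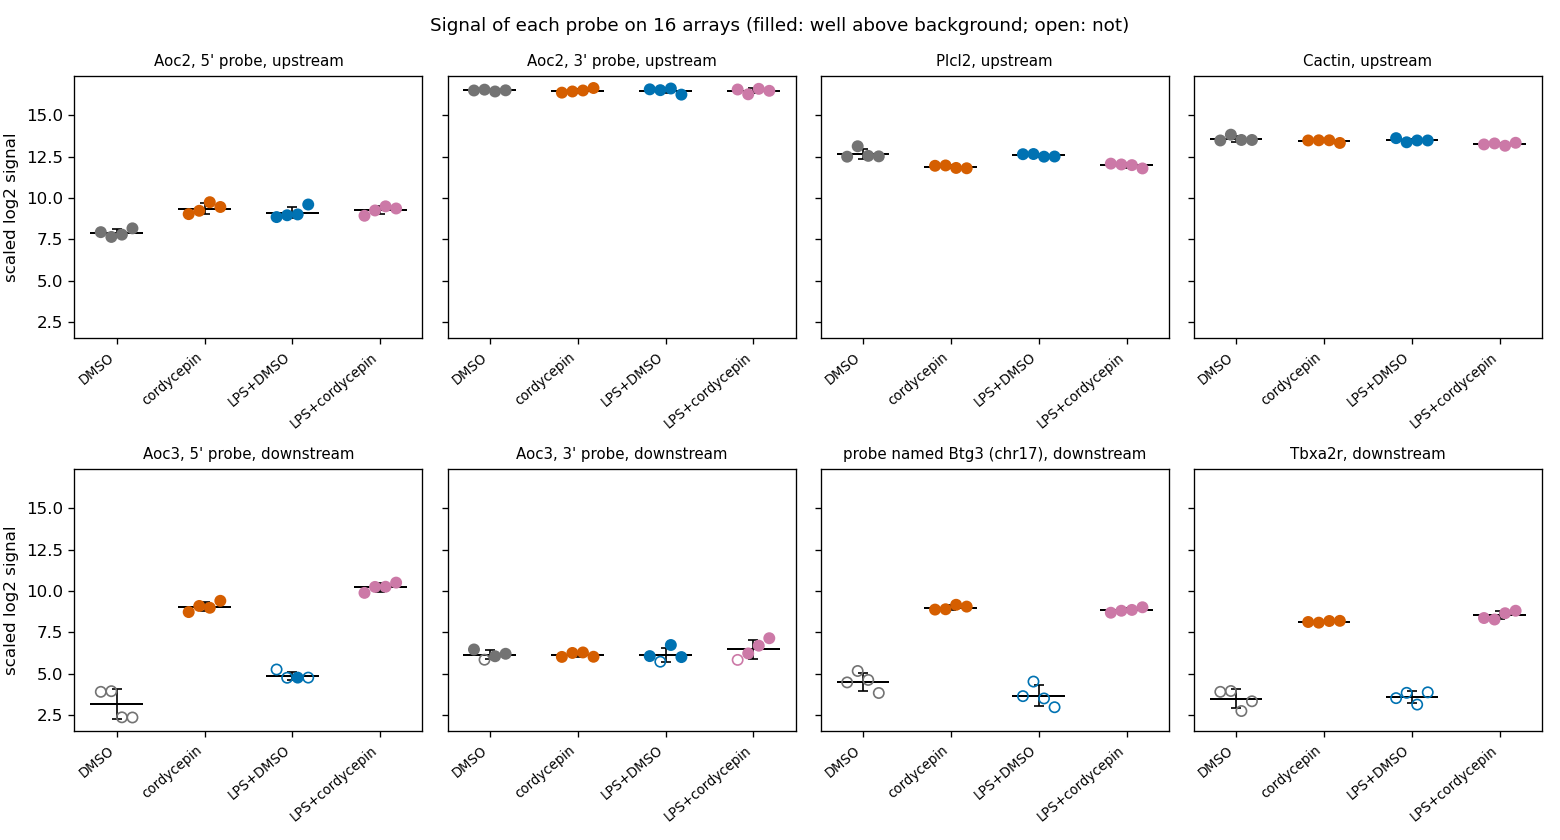
Scaled log2 signal (y axis) of the 8 probes on each of 16 arrays, by condition (x axis), upstream genes above and downstream genes below. Filled points are well above background and open points are not, lines are means and bars SD of 4 arrays. The 5′ Aoc3 probe, the chr17 Btg3 probe and Tbxa2r have open points in DMSO, between 2.36 and 5.17, and filled points in cordycepin, between 8.09 and 9.41.

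Aoc2 and Aoc3 gave a result that depended on the probe. On the 5′ Aoc3 probe the scaled log2 signals in DMSO were 3.91, 3.95, 2.37 and 2.36 for replicates 1 to 4, none well above background. In cordycepin they were 8.73, 9.10, 8.99 and 9.41. The groups did not overlap, and the probe was read on no DMSO array and on all cordycepin arrays. The fitted difference was 5.91 ± 0.33 (SE, limma, adjusted p = 8.39e-09). With each DMSO signal raised to a floor, the lowest signal well above background on its array, cordycepin was 15.9-fold higher. This floor-based fold is for these processed signals only. It is not a strict lower limit, since a signal above the floor can also be not well above background. On DMSO replicate 2 the 3′ Aoc3 probe was so at 5.85, while the floor averaged 5.07 over the DMSO arrays. With normexp background correction the fitted difference was 2.71, and in the value table of the authors 3.72. Both were below that fold and still called.

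The 3′ Aoc3 probe, which carries an Ensembl transcript and not the RefSeq mRNA, behaved in another way. Its signals were 5.85 to 6.47 in DMSO (6.15 ± 0.26, SD, n = 4) and 6.02 to 6.29 in cordycepin (6.15 ± 0.15), and the difference was 0.00 ± 0.25 (SE, limma adjusted p = 0.999). It was well above background on 13 of 16 arrays. The Aoc3 rise was thus seen at the probe nearer to Aoc2 and not at the one farther away.

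The upstream gene Aoc2 also split by probe. On the 5′ Aoc2 probe the signals were 7.94, 7.65, 7.79 and 8.17 in DMSO, against 9.03, 9.23, 9.75 and 9.46 in cordycepin, all well above background. All cordycepin arrays were above all DMSO arrays, by a fitted 1.48 ± 0.19 (SE, 2.79-fold, limma adjusted p = 3.33e-05). On the 3′ Aoc2 probe, which holds AATAAA near its end, DMSO gave 16.44 to 16.55 and cordycepin 16.37 to 16.65. The difference was -0.01 ± 0.10 (SE, limma adjusted p = 0.967), with 2 of 4 days higher and 2 lower. The Aoc2 probes also differed widely in level, with DMSO means of 16.50 (3′) and 7.89 (5′). Their Pearson's r over the 16 arrays was -0.13. Whether the 3′ probe reads only Aoc2 RNA was not tested, and this limits every result that rests on it.

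Plcl2 was the only upstream probe that was lower with cordycepin by the adjusted p. Its signals in DMSO were 12.50, 13.13, 12.55 and 12.52, and in cordycepin 11.95, 11.97, 11.82 and 11.80. Every DMSO array was above every cordycepin array, with replicate 2 of DMSO the highest. The fitted difference was -0.79 ± 0.13 (SE, limma adjusted p = 0.000295), short of 2-fold. It was -0.63 without that array, it passed 2-fold with scaling to the median of all probes (-1.05), and with scaling to spiked-in controls (-0.73) the adjusted p was 0.565.

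On the chr17 Btg3 probe, downstream of Plcl2, the DMSO signals were 4.48, 5.17, 4.63 and 3.84, none well above background. Cordycepin gave 8.88, 8.90, 9.17 and 9.06. The cordycepin arrays lay close together (SD 0.14) and far from any DMSO array (SD 0.55). The fitted difference was 4.47 ± 0.28 (SE, limma adjusted p = 3.05e-08), with a floor-based fold of 14.9 on the processed signals. The difference was 2.25 with normexp and 3.03 in the value table of the authors, both called but below that fold.

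Without LPS, Cactin stayed level at its single probe. DMSO gave 13.48, 13.83, 13.51 and 13.51 and cordycepin 13.48, 13.49, 13.49 and 13.33. The ranges overlap, and the fitted difference of -0.13 ± 0.09 (SE) did not pass the test (limma adjusted p = 0.403). Tbxa2r downstream of it gave 3.91, 3.96, 2.75 and 3.34 in DMSO, none well above background, and 8.13, 8.09, 8.19 and 8.20 in cordycepin. On the cordycepin arrays its SD was 0.05 and the groups did not overlap. The rise was 4.66 ± 0.23 (SE, limma adjusted p = 3.85e-09), with a floor-based fold of 8.47 on the processed signals. The rise was 1.90 with normexp and 2.89 in the value table of the authors, both below that fold.

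**Figure D2:**
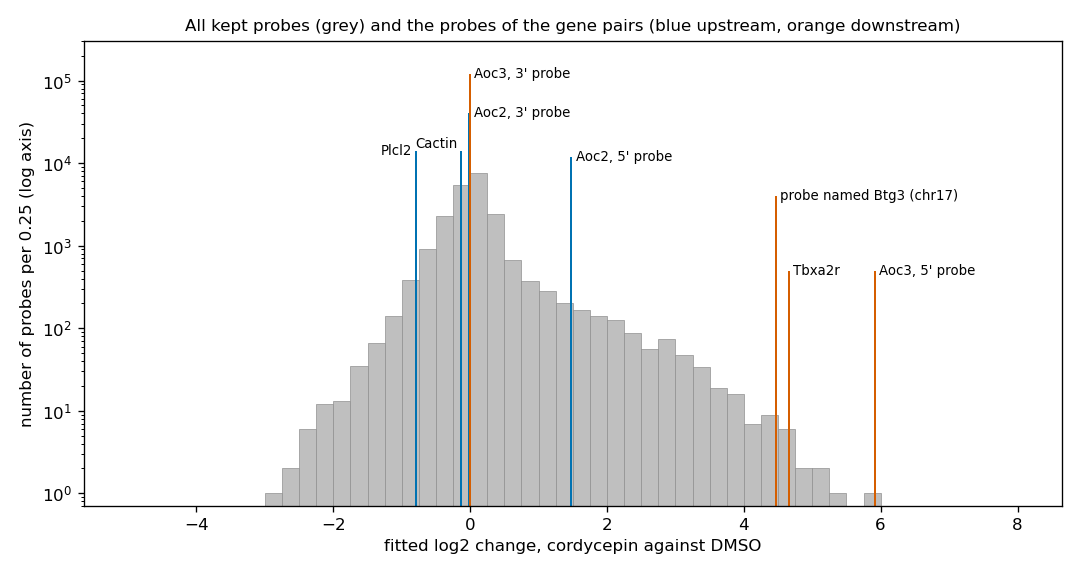
Number of probes on a log axis (y) by fitted log2 change in cordycepin against DMSO (x, bins of 0.25) for all 21597 probes tested, with vertical lines at the upstream (blue) and downstream (orange) probes. The chr17 Btg3 probe, Tbxa2r and the 5′ Aoc3 probe stand at 4.47, 4.66 and 5.91, and the other lines lie between -0.79 and 1.48.

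Whether both genes of a pair moved by the same amount was tested on the log2 difference between the downstream and the upstream probe within each array, a quantity that does not depend on how arrays are scaled. For the 3 downstream probes that DMSO arrays did not read, the difference was also computed with each DMSO signal raised to the floor. This floor-based value is not a strict lower limit, as given above. On this floor Tbxa2r rose by 3.21 more than Cactin (4.79 as measured), and the chr17 Btg3 probe by 4.69 more than Plcl2 (5.26 as measured). The 5′ Aoc3 probe rose by 4.00 more than the 3′ Aoc2 probe (5.92 as measured) and by 2.51 more than the 5′ Aoc2 probe (4.43 as measured). These values hold for the processed signals, and the size depended on the background correction. In the order just given, the 4 differences were 2.04, 3.02, 2.72 and 1.56 with normexp and 3.10, 3.83, 3.79 and 2.41 in the value table of the authors. The 3′ Aoc3 probe, itself at 0.00, changed by 1.48 ± 0.16 (SE) less than the 5′ Aoc2 probe, which had risen by 1.48. Each of these 5 differences had an exact two-sided permutation p of 0.0286, the smallest that 4 arrays against 4 can give. It was 0.0343 after adjustment over the 6 pairs compared, and the 4 floor-based values had the same p. The 4 differences with a floor-based value use probes selected for a rise with cordycepin under LPS. Of kept probes read on no DMSO array, as these are, 75.6 to 87.5% were called higher. Their p is therefore no support by itself. For the 3′ Aoc3 probe against the 3′ Aoc2 probe, the difference was 0.01 ± 0.17 (exact p = 0.943).

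With sign flips of the 4 within-day differences, which keep the replicate block of the culture day, the smallest possible exact p is 0.125, and the 5 differences stood at that value. The 4 days went the same way in each of them. On the 5′ Aoc3 probe cordycepin exceeded DMSO by 4.82, 5.15, 6.63 and 7.05 on the 4 days. The days with smaller differences were those of the slide with fewer spots above background, where the DMSO values of this probe were 3.91 and 3.95 against 2.37 and 2.36 on the other slide, and the part of the slide in this was not tested. With the slide as a block, which cannot move a difference between conditions that are balanced over the slides, the limma adjusted p was 8.17e-09. The chr17 Btg3 probe gave 4.40, 3.73, 4.54 and 5.22, and Tbxa2r 4.21, 4.14, 5.44 and 4.86.

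**Figure D3:**
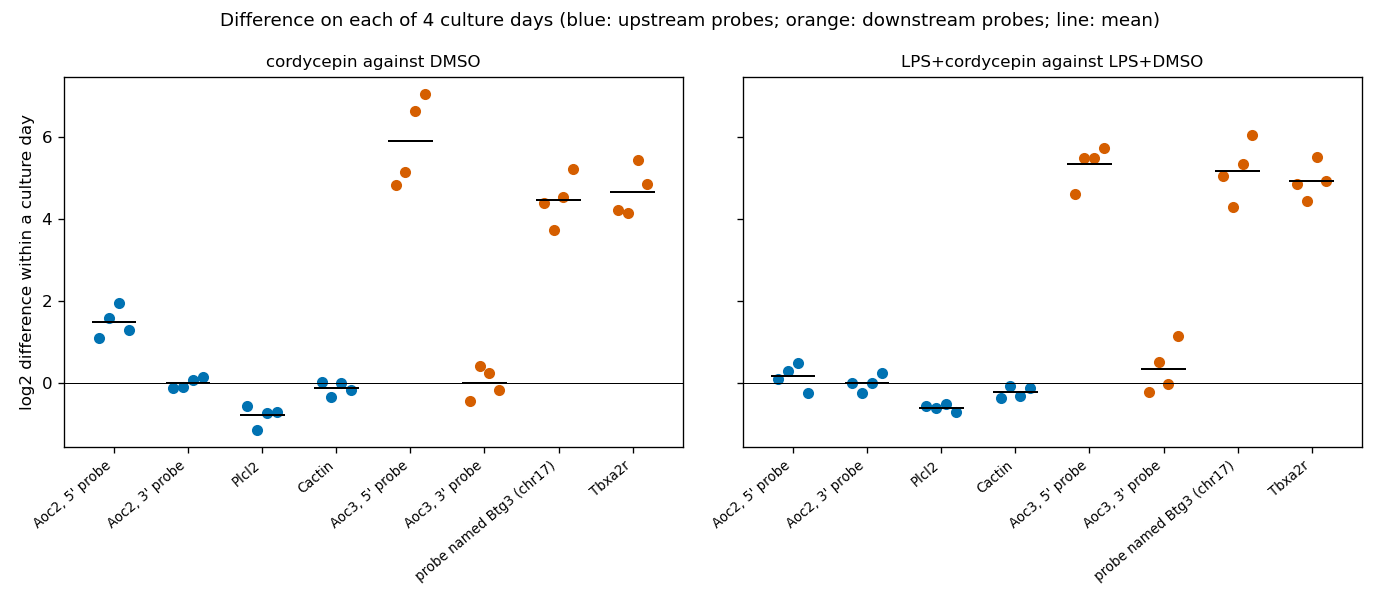
Log2 difference within each of 4 culture days (y axis) for the upstream (blue) and downstream (orange) probes (x axis), without LPS on the left and with LPS on the right, with lines at the means. The 5′ Aoc3 probe, the chr17 Btg3 probe and Tbxa2r lie between 3.73 and 7.05 on the left, the 3′ Aoc3 probe scatters around 0, and the 5′ Aoc2 probe is between 1.10 and 1.95 on the left and between -0.24 and 0.49 on the right.

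In the presence of LPS, the comparison on which the members were chosen, the same 3 downstream probes were again far above their vehicle control. The 5′ Aoc3 probe gave 5.26, 4.76, 4.77 and 4.77 in LPS+DMSO, well above background on 1 of 4 arrays, and 9.89, 10.25, 10.26 and 10.51 in LPS+cordycepin. The chr17 Btg3 probe had 3.65, 4.53, 3.51 and 2.98 against 8.69, 8.81, 8.86 and 9.02. Tbxa2r had 3.53, 3.85, 3.14 and 3.88 against 8.37, 8.28, 8.66 and 8.81. No LPS+DMSO array reached any LPS+cordycepin array on these probes. The fitted differences were 5.33 ± 0.33, 5.18 ± 0.28 and 4.93 ± 0.23 (SE). On the processed signals the floor-based folds of the last 2 were 12.4 and 9.99, given here as a description. In this comparison 3 of 4 downstream probes and 0 of 4 upstream probes passed the call, and 7.11% of all probes (1536 of 21597) were called higher, a share from which nothing is read here because the members were picked on it.

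The 3′ Aoc3 probe had 5.73 to 6.74 in LPS+DMSO and 5.84 to 7.15 in LPS+cordycepin, a fitted 0.34 ± 0.25 (SE) with overlapping groups. Of the upstream probes with LPS, Plcl2 was lower with cordycepin on all 4 days, from 12.58 ± 0.09 to 11.97 ± 0.13 (SD, n = 4), a difference of -0.61. Cactin was also lower on all 4 days, from 13.49 ± 0.10 to 13.26 ± 0.08, by -0.23, with groups that did not overlap. The 3′ Aoc2 probe was at 16.49 ± 0.17 and 16.48 ± 0.15. The 5′ Aoc2 probe was at 9.11 ± 0.34 and 9.26 ± 0.24, which differ by less than their spread.

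The response to LPS alone bears on the word constitutive, which was applied to the upstream genes. Cactin (-0.09 ± 0.09, SE), Plcl2 (-0.10 ± 0.13) and the 3′ Aoc2 probe (-0.01 ± 0.10) differed little between LPS+DMSO and DMSO. On the 5′ Aoc2 probe LPS+DMSO gave 8.85, 8.96, 9.01 and 9.61, all above the DMSO arrays, a fitted difference of 1.22 ± 0.19 or 2.33-fold. For this probe the data go against the word. Of the 4 upstream probes 1 met the call in this comparison, and 2.15% of all probes tested (464) were called higher. The 5′ Aoc2 probe was thus at 9.37 ± 0.31 with cordycepin, 9.11 ± 0.34 with LPS and 9.26 ± 0.24 with both, and at 7.89 ± 0.22 (SD, n = 4) in DMSO.

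Among the downstream probes, LPS alone left Tbxa2r and the chr17 Btg3 probe not well above background on any array. The 5′ Aoc3 probe was higher on the LPS+DMSO arrays (4.89 ± 0.25) than on the DMSO arrays (3.15 ± 0.91, SD, n = 4), but only 1 of these 8 arrays read it well above background, so no fold is given. With cordycepin in both conditions it was measured on all arrays, and LPS+cordycepin exceeded cordycepin by 1.16, 1.15, 1.26 and 1.10 on the 4 days, a fitted 1.17 ± 0.33 (SE). For Tbxa2r, LPS+cordycepin exceeded cordycepin by 0.24, 0.19, 0.47 and 0.61 on the 4 days, a fitted 0.38 ± 0.23 with groups that did not overlap (8.28 to 8.81 against 8.09 to 8.20). On the chr17 Btg3 probe the day values were -0.19, -0.09, -0.31 and -0.04, a fitted -0.16 ± 0.28, and the groups overlapped. Over the 4 conditions the order of levels on the 5′ Aoc3 probe was thus LPS+cordycepin, cordycepin, and then both vehicle conditions, and on Tbxa2r it was the same with a smaller step between the cordycepin conditions. On the chr17 Btg3 probe the cordycepin conditions differed by less than the SE of the fit. For Tbxa2r and the chr17 Btg3 probe the vehicle conditions, not well above background, had no order.

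The other genes near the pairs give the setting of the members. Within 100 kb of the member probes there were 43 probes of other genes on either strand, of which 32 passed the filter on dim probes, and 2 were called higher and 0 lower in cordycepin against DMSO, where 5.55% of all probes were called higher. A count of 2 in 32 is near that share, and nothing is read from it. The first was Wnk4, a kinase that regulates ion transport, on the plus strand 52.8 kb before the end of the last Aoc2 probe. Its signals rose from 6.23, 6.73, 6.00 and 6.29 in DMSO to 8.49, 8.36, 8.51 and 8.76 in cordycepin, by 2.22 ± 0.14 (SE, limma adjusted p = 2.6e-08). The second was 2210404O07Rik, on the plus strand 69.1 kb after the Cactin probe, with 1.64 ± 0.33 (limma adjusted p = 0.00191).

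Psme3, a proteasome activator subunit and the nearest plus-strand neighbour before Aoc2, differed by -0.29 ± 0.13 (SE, limma adjusted p = 0.146) at its probe 6.71 kb upstream. Near Plcl2 the single other probe was that of Tbc1d5 on the minus strand, at -0.40 ± 0.12 (limma adjusted p = 0.0353), below the 2-fold minimum. Just 560 bases past the Tbxa2r probe, a probe of AI413759 on the same strand gave 4.65 ± 0.17 in DMSO and 5.24 ± 1.14 in cordycepin (SD, n = 4). It was well above background on 1 and 3 of these arrays and did not pass the filter. The rise read at Tbxa2r could not be followed beyond it at this signal.

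**Figure D4:**
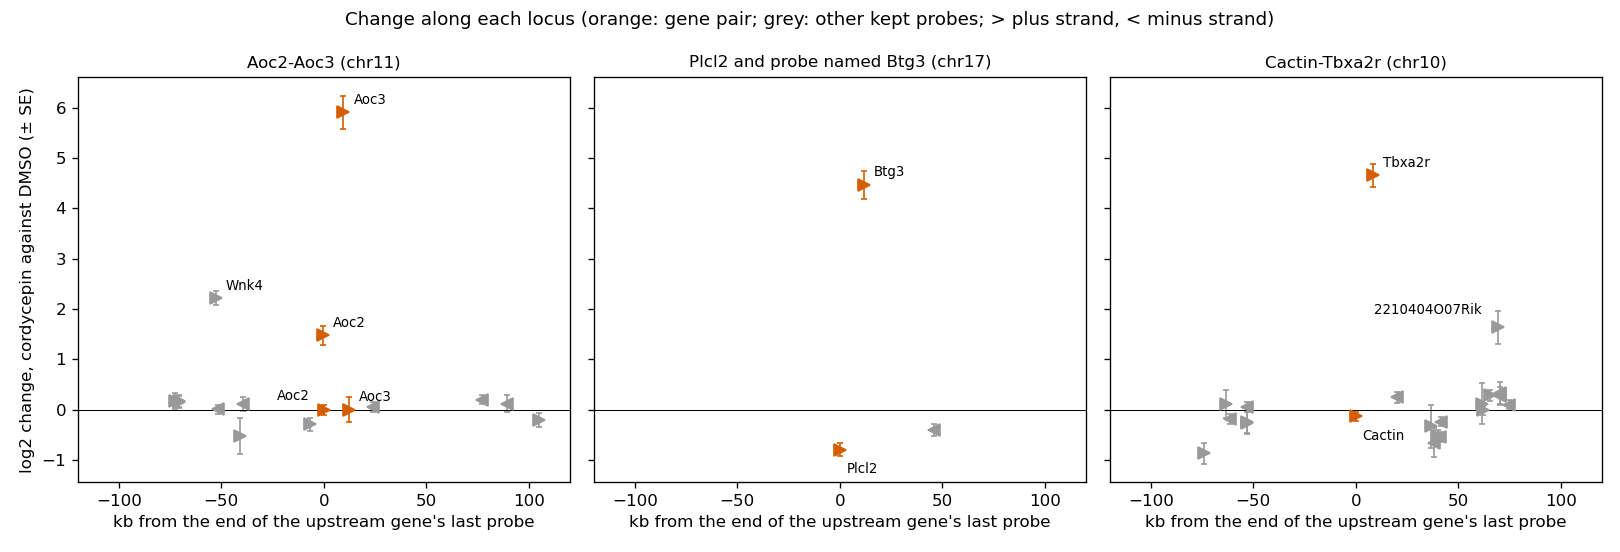
Fitted log2 change in cordycepin against DMSO with its SE (y axis) by distance in kb from the end of the upstream gene's last probe (x axis), for all probes that passed the filter near each pair, with members in orange, other genes in grey, and arrowheads giving the strand. The 5′ Aoc3, chr17 Btg3 and Tbxa2r points between 8.58 and 11.7 kb stand at 4.47 to 5.91, and the grey points other than Wnk4 and 2210404O07Rik lie between -0.86 and 0.34.

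Other members of the same gene families were measured as well. Each list gene was read by its brightest kept probe, which for Aoc2 was the 3′ probe. In cordycepin against DMSO, where 5.55% of all probes were called higher, 1 of 7 amine oxidases tested in this way was called higher. That was Aoc3, and the median over the list was -0.01 against 0.04 over all probes. The 5′ Aoc2 probe, called higher as given above, is not in this count. Maoa, Smox and Paox differed by 0.14, -0.09 and -0.18, and none passed the test. Among prostanoid receptors 3 of 9 were tested, and only Tbxa2r was called (median -0.27). The prostacyclin receptor Ptgir had -1.19 ± 0.40 (SE, limma adjusted p = 0.0581). Of 5 tested BTG/TOB genes only the chr17 Btg3 probe was called, and the median of the list was -0.30. None of 9 tested phospholipase C genes was called, with a median of -0.01. The called genes of these lists are the selected members themselves, and the lists are too short to set their counts apart from the share of all probes.

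Of 22 tested factors of 3′ end processing and termination, the step that cordycepin acts on, 0 were called higher and 2 lower, with a median of 0.09. Of all probes, 5.55% were called higher and 1.08% lower (234 of 21597), and a list of 22 is short for such a comparison. The poly(A) polymerase Papolg fell by 1.73 on the log2 scale, from 8.63 ± 0.10 to 6.90 ± 0.22 (SD, n = 4, limma adjusted p = 1.86e-06). Scaf8, which binds the tail of RNA polymerase II and restrains early termination, fell by 1.57, from 11.25 ± 0.21 to 9.68 ± 0.09 (limma adjusted p = 5.1e-07). In LPS+cordycepin against LPS+DMSO the same 2 genes were called lower, where 348 of all 21597 probes were.

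A probe downstream of a detected gene is common on this array, and as a background its calls were counted. Of 3758 probes with a detected same-strand probe of another gene 1 to 20 kb upstream, 16.5% were called higher in cordycepin against DMSO, against 3.21% of the other 17640 probes with a position. The shares called lower were 1.04% and 1.11%. Among probes well above background on all 4 DMSO arrays, and so not let in by a rise, the shares called higher were 6.90% of 3045 and 1.37% of 16184. Among probes read on no DMSO array, the class of the 3 downstream probes that rose, the shares were 87.5% of 136 and 75.6% of 127, so that most probes let in by a rise were called with or without a detected gene upstream. These shares are descriptions, and neighbouring probes share transcripts. The 5′ Aoc3 probe, the chr17 Btg3 probe and Tbxa2r are among the 3758, as are both Aoc2 probes and the 3′ Aoc3 probe, while Plcl2 and Cactin are not.

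The genes whose signals followed the downstream members most closely over the 16 arrays all lay on other chromosomes than the member they followed. Stmn4, Asb4 and Lpar2 had Pearson's r of 0.988, 0.987 and 0.987 with the 5′ Aoc3 probe. For the chr17 Btg3 probe these were Agbl3 (0.990), Rbx1 (0.988) and Tigd3 (0.988), and for Tbxa2r 4930548H24Rik (0.989), Nip7 (0.988) and Serpinf2 (0.988). Agbl3, like the chr17 Btg3 probe, was well above background on none of the 8 vehicle arrays and differed by 3.25 in cordycepin against DMSO. The downstream probes themselves correlated at 0.971 (5′ Aoc3 and Tbxa2r), 0.973 (Tbxa2r and the chr17 Btg3 probe) and 0.917 (5′ Aoc3 and the chr17 Btg3 probe). All these values share the arrays and the 4 conditions, and they are given without a test.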

How the data were processed

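RNA of 16 RAW264.7 cultures was measured on Agilent 1-colour arrays. Per the labels it was labelled with Cy3 in a kit that primes from poly(A) tails. The deposited scanner files hold, for each spot, a processed intensity from which the authors' Feature Extraction software had subtracted background (version 10.10.1.1 in the submitters' processing notes and 10.7.3.1 in the file headers), with no normalization between arrays. The authors also deposited a table of log2 values, which served as an alternative.

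Intensities were log2-transformed, outlier spots removed, spots of a probe averaged, and arrays scaled to their 75th percentile, computed from the 18064 probes that were detected everywhere. Each of the 8 probes has 1 spot. A probe was kept if every array of some condition read it well above background. limma 3.58.1 (R 4.3.3) fitted the 4 condition means to all arrays, with Benjamini-Hochberg adjustment over 21597 probes. On simulated data for cordycepin against DMSO, 90 of 100 probes changed by 1.5 and 97 of 100 changed by 3 (log2) were recovered among 21597, with 4 false calls. The simulated arrays were independent, without a slide effect or a background floor. These rates therefore do not describe probes at background, such as the downstream members in vehicle. Floor-based folds set the mean of the bright condition against a floor. Per dim array this was the higher of its lowest signal well above background and the probe's own signal. These folds are not strict lower limits, and they apply to the processed signals and not to the alternatives. Within-array differences were tested with scipy 1.17.1.

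Members and lists were chosen with earlier results of these data known. Named genes are the members, their neighbours within 100 kb, the 3 best-correlated genes of each downstream probe, and list genes that were called. The other list genes named (Maoa, Smox, Paox and Ptgir) and the markers named were chosen after their values were seen. Apart from the markers counted, a further marker is not reported here. Arrays that share a replicate number, and so a collection day per the design text, were checked for pairing: their residuals correlated by 0.19 (-0.07 to 0.42), against 0.17 for other days on the same slide and -0.18 between slides. The main fit had no block. Strand was taken from the order of the coordinates, which gave the RefSeq strand for 99.6% of 21944 probes. The RefSeq table is on GRCm38 and was used for names and neighbours. No genome sequence was used here. Alternatives were other scalings, normexp (offset 50), the authors' table, other dim-probe filters, blocks, fits and thresholds, each gene by its brightest probe, and leaving out days and arrays.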

Additional observations from a re-analysis of the deposited data

Results flagged for a closer look

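In groups of 4 arrays, a lone value was marked when its gap to the nearest other array, divided by the range of the group, passed Dixon's critical value for 4 values, which chance does in about 1 of 20 groups. Of 32 groups, 4 were marked. Replicate 2 of DMSO was the high array for both Plcl2 (13.13, ratio 0.925) and Cactin (13.83, ratio 0.899), 2 genes with a strong signal. Cactin had a low replicate 4 in cordycepin (13.33, ratio 0.946). On the 5′ Aoc3 probe replicate 1 of LPS+DMSO stood above the others (5.26, ratio 0.981), where it was not well above background. Without DMSO replicate 2 the Plcl2 difference in cordycepin against DMSO was -0.63.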

How the results depend on the processing

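The direction of all called member changes was kept under every alternative run, and adjusted p (limma) in cordycepin against DMSO ranged up to 1.59e-05 for the 5′ Aoc3 probe, 2.77e-05 for Tbxa2r, 5.97e-05 for the chr17 Btg3 probe and 0.0076 for the 5′ Aoc2 probe. Member probes called higher were 4, also without any replicate or array (4 to 4), but 1 when probes had to be detected on all 16 arrays, which removes the dim downstream probes. The replicate block and the slide block changed no member's call. Scaling to the median of all probes moved the median change in cordycepin against DMSO from 0.04 to -0.22, and spiked-in controls moved it to 0.11.

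All probes called higher in cordycepin against DMSO, LPS+cordycepin against LPS+DMSO and LPS+DMSO against DMSO numbered 503, 922 and 284 with normexp, 369, 543 and 272 when detected on all 16 arrays, and 2098, 2598 and 1087 with no minimum fold. In the first 2 comparisons the counts were 760 and 925 in the authors' table and 716 and 948 with each gene by its brightest probe, and in the third 287 with spiked-in controls. Probes called lower in the first were 120 with normexp, 105 with spiked-in controls and 1522 with no minimum fold. The cause of these differences was not tested.

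For the within-array differences, the replicate block (sign flips within a day) gave the same 4.43, -1.48, 5.92, 4.79 and 5.26 at an exact p of 0.125, its smallest. Leaving out a day or an array, after which an exact p cannot go below 0.1 or 0.0571, gave 3.99 to 4.78 for 5′ Aoc3 less 5′ Aoc2, -1.58 to -1.39 for 3′ Aoc3 less 5′ Aoc2, 5.59 to 6.24 for 5′ Aoc3 less 3′ Aoc2, 4.57 to 4.99 for Tbxa2r less Cactin and 5.04 to 5.39 for the chr17 Btg3 probe less Plcl2. With normexp they were 1.56, -1.25, 2.72, 2.04 and 3.02, each at the smallest exact p of 0.0286. Of probes 1 to 50 kb downstream of a detected gene 11.4% were called higher, and of those at 1 to 5 kb 17.7%. The precision is limited by the number of arrays and, for the downstream genes in vehicle, by signals at background.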
